A study of Mus musculus with 18 samples.

Results

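Homologous recombination repairs double-strand breaks by copying an intact DNA template, and 9 of its genes were followed in L929 cells, namely Brca1, Bard1, Palb2, Brca2, Xrcc2, Xrcc3, Rad54l, Blm and Fancd2. They were chosen by gene name. Each symbol matched 1 row of the deposited count table, so the genes were 9 of 57180 rows, and all 9 were among the 14263 genes left after edgeR's filter on low counts. L929 is a wild-type mouse fibroblast line, and RNA from 18 libraries in 6 groups of 3 independent cultures was sequenced. Mock cells received DMSO. AOA cells received aminooxyacetic acid, an inhibitor of transaminases, at 0.5 mM, and AOA+Asp cells received AOA with 20 mM aspartate. HT-DNA cells were transfected with herring testis DNA, an agonist of the DNA sensor cGAS, at 0.5 μg/ml for 6 h with a lipid reagent. HT-DNA+AOA cells were given AOA for 1 h before the same transfection, and HT-DNA+AOA+Asp cells were also given aspartate. All groups are this 1 cell line, and no group received aspartate alone. Whether cells without HT-DNA received the transfection reagent, and for how long they were kept in AOA, is not stated in the sources used here. If Mock cells had no reagent, HT-DNA and the reagent cannot be told apart.

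In this pathway, nucleases first trim the broken ends to single strands, which the protein RPA covers. BRCA1, bound to its partner BARD1, recruits PALB2, which brings BRCA2, and BRCA2 prepares the single strand for strand exchange. XRCC2 and XRCC3 act in complexes that help strand exchange to begin, and RAD54L is a motor protein that helps the single strand to invade the template. BLM is a helicase of the RecQ family that takes recombination intermediates apart. FANCD2 belongs to the Fanconi anemia pathway, which unhooks crosslinked strands and protects stalled replication forks. Recombination is used mainly in S and G2 phase, when a sister chromatid is present, and many of its genes are transcribed mainly in cycling cells.

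The promoters of 7 of the 9 genes were matched in RefSeq (build GRCm38.p6), each as a window from 250 bases before to 50 bases after the gene's start, and 5 of them are shown. Brca1 and Rad54l are shown as genes that passed the test in 5 of the 9 comparisons below, Brca2 as the gene whose change with HT-DNA shifted most when base composition and length were corrected for, and Bard1 and Xrcc3 as the genes least like the others across libraries. Capitals mark matches, on either strand, to motifs that are known from genes of the cell cycle: TTTCCCGC, TTTGGCGC or TTTCGCGC (E2F), CCAAT (NF-Y) and TTTGAA (the CHR element). No motif contains another.
Brca1 (chr11:101551906-101552205, minus strand): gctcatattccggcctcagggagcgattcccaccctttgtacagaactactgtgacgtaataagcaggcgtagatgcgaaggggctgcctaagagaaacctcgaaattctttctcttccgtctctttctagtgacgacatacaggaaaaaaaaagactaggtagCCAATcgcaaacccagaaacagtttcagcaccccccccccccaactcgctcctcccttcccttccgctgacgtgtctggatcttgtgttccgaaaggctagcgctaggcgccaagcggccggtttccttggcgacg
Rad54l (chr4:116123641-116123940, minus strand): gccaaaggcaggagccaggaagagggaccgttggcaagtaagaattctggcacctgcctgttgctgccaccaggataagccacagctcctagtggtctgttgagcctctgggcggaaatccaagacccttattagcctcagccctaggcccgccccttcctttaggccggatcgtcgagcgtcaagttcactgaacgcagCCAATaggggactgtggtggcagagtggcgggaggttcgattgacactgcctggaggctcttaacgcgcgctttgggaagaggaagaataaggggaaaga
Brca2 (chr5:150522371-150522670, plus strand): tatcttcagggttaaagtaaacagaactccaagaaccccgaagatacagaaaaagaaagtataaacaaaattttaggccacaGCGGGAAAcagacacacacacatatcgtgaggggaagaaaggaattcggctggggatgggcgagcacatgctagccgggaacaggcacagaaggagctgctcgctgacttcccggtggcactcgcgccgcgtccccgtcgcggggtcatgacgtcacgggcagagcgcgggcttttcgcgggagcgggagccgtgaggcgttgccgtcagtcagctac
Bard1 (chr1:71102923-71103222, minus strand): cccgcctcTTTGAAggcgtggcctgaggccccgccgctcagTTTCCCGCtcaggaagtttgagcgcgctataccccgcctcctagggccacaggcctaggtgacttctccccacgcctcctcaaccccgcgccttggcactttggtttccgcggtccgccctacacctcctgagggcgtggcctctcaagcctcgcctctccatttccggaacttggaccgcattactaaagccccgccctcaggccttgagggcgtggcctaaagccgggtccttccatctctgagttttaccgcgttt
Xrcc3 (chr12:111813830-111814129, minus strand): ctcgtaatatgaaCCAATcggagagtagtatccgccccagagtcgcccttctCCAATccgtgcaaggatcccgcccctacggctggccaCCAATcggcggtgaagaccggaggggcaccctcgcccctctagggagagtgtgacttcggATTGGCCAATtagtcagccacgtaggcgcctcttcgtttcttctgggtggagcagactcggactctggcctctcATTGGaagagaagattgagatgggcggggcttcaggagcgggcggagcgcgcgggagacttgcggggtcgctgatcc
An E2F motif was in 2 of the 7 windows, Brca2 and Bard1, and in 1.84% of the 32851 windows of that length in the table. CCAAT was in 5 of the 7, namely Brca1, Palb2, Rad54l, Blm and Xrcc3, and in 37.4% of all windows. Xrcc3 held 6 matches to CCAAT, Blm held 2, and each of the other three held 1. TTTGAA was in the window of Bard1 alone among the 7, and in 17.9% of all windows. A match describes letters in a window, and none was tested for binding.

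The files hold estimated counts per gene, with library totals of 17901546 to 24057284. Levels are given as CPM, the counts relative to each library's size after edgeR's TMM scaling. The genes held between 81 counts (Xrcc3 in 1 library) and 1408 counts (Brca1 in 1 library). The label of a fibroblast line was checked with marker genes. Of 12 fibroblast markers, 8, such as Col1a1, Col1a2 and Vim, were over 1 CPM in every group, and none of 7 epithelial markers was. The remaining fibroblast markers, Thy1, Lum, Dcn and Fap, did not average over 1 CPM across the 18 libraries. Of 7 macrophage markers, Ptprc and Adgre1 were at 0 counts in all libraries. Another, Cd68, was the only 1 over 1 CPM, with group means of 114 to 144 CPM. The HT-DNA+AOA group was the least even of the 6. The SD of a library's log2 deviations from its group mean was 0.388 in its library 1 and 0.374 in its library 3, against 0.249 to 0.3003 in the other libraries. The summed level of the 9 genes was 171 CPM in HT-DNA+AOA library 1, 128 in library 2 and 110 in library 3, so results that use this group are also given without library 1. Library 3 deviated by a like amount, and calls gained without it are also given below.

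Per kilobase of the longest annotated transcript, the order of the 9 genes in Mock cells ran from Xrcc2 to Brca2. Xrcc2 had 11.1 ± 0.404 CPM per kilobase (SD, n = 3) and Brca1 7.54 ± 0.515. Blm with 5.38 ± 0.102 and Rad54l with 5.31 ± 0.436 overlapped, as did Xrcc3 with 3.22 ± 0.0811 and Fancd2 with 3.09 ± 0.408. Bard1 had 2.53 ± 0.290, which overlapped Fancd2, Palb2 had 2.24 ± 0.102 and Brca2 1.61 ± 0.0546. The level of Xrcc2 was thus the highest per kilobase and that of Brca2 the lowest. With HT-DNA, Brca1 stood at 3.83 ± 0.519 CPM per kilobase, after Xrcc2 (10.3 ± 0.146), Rad54l (4.08 ± 0.319) and Blm (3.94 ± 0.396), and its libraries overlapped those of Rad54l and Blm. Brca2 was again the lowest, at 1.13 ± 0.110.

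**Figure D1:**
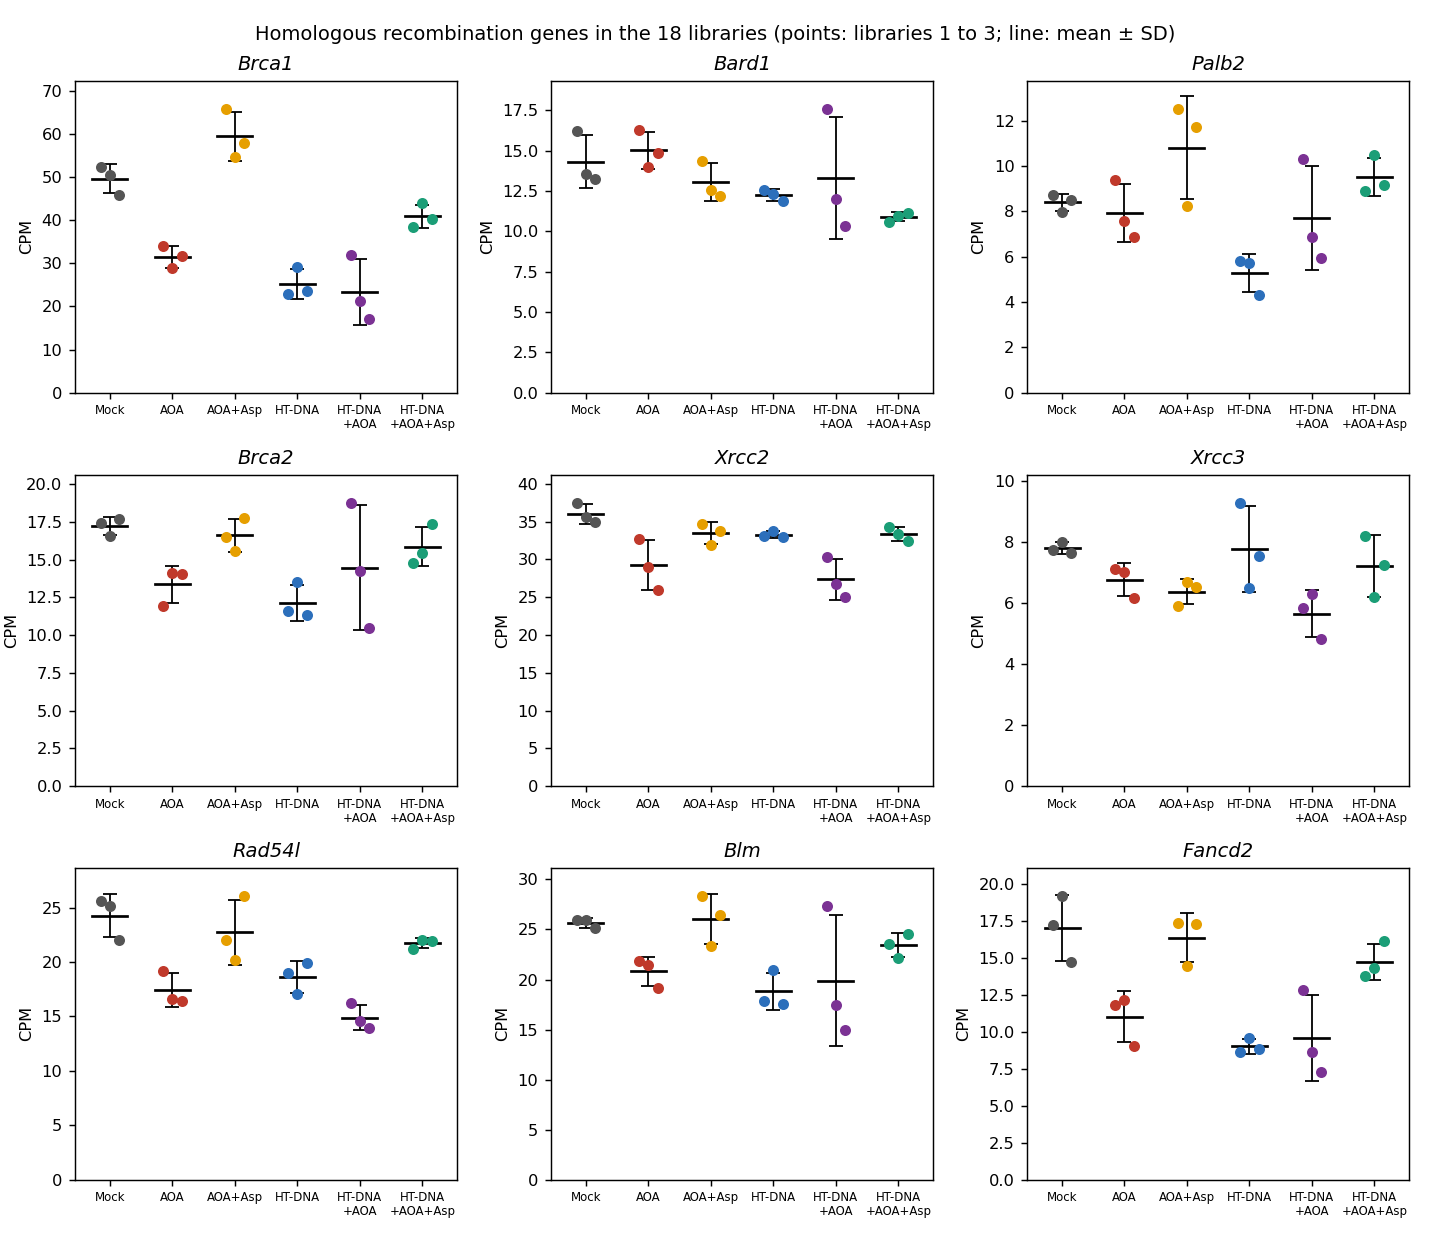
Level of each of the 9 genes in CPM (linear axis from 0) in the 18 libraries. Points are libraries 1 to 3 of a group, the wide line is the mean and the error bar is the SD (n = 3). Brca1 and Fancd2 were lower in AOA, HT-DNA and HT-DNA+AOA cells than in Mock cells, and HT-DNA+AOA library 1 lies apart from libraries 2 and 3 for Brca1, Bard1, Palb2, Blm and Fancd2.

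The genes were compared between groups with edgeR's quasi-likelihood test, with all 18 libraries in 1 fit, and a gene was called when its p-value, adjusted by Benjamini and Hochberg's method over the 14263 genes, was under 0.05. All fold changes are on the log2 scale. With AOA, 5 of the 9 genes fell and none rose, while 45.7% of all genes tested were called and 23.3% were called lower. When aspartate was given with AOA, 3 of the 9 rose against AOA and none fell, where 46.3% of all genes were called and 23.5% were called higher. Between AOA+Asp and Mock cells, edgeR called 0 of the 9, with 0 at an unadjusted p under 0.05 and 0 called by DESeq2, where edgeR called 6.47% of all genes and DESeq2 8.90%. With HT-DNA, 6 of the 9 fell and none rose, where 48.2% of all genes were called and 24.0% were called lower. The median log2 fold change of the 9 genes was -0.30 with AOA, 0.32 when aspartate was added and -0.45 with HT-DNA, beside medians of 0.02, -0.01 and -0.01 over all genes tested. The shares of the 9 genes that were called, 55.6% with AOA, 33.3% when aspartate was added and 66.7% with HT-DNA, lie on both sides of these backgrounds, and within each comparison the called genes went 1 way.

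When libraries were scaled by their totals in place of TMM, the median of all genes moved by -0.13 for AOA and by -0.11 for HT-DNA. The share of all genes called higher and lower was then 14.9% and 31.6% with AOA (22.4% and 23.3% with TMM), 28.7% and 17.4% for aspartate added to AOA (23.5% and 22.8% with TMM), 1.62% and 6.12% for AOA+Asp against Mock (2.52% and 3.95% with TMM) and 16.9% and 31.1% with HT-DNA (24.2% and 24.0% with TMM). The median of the 9 genes moved by a like amount, to -0.43 with AOA and -0.56 with HT-DNA. With totals, 6 of the 9 were called lower with AOA, Blm being the added one, and 6 with HT-DNA, and no called gene changed direction.

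**Figure D2:**
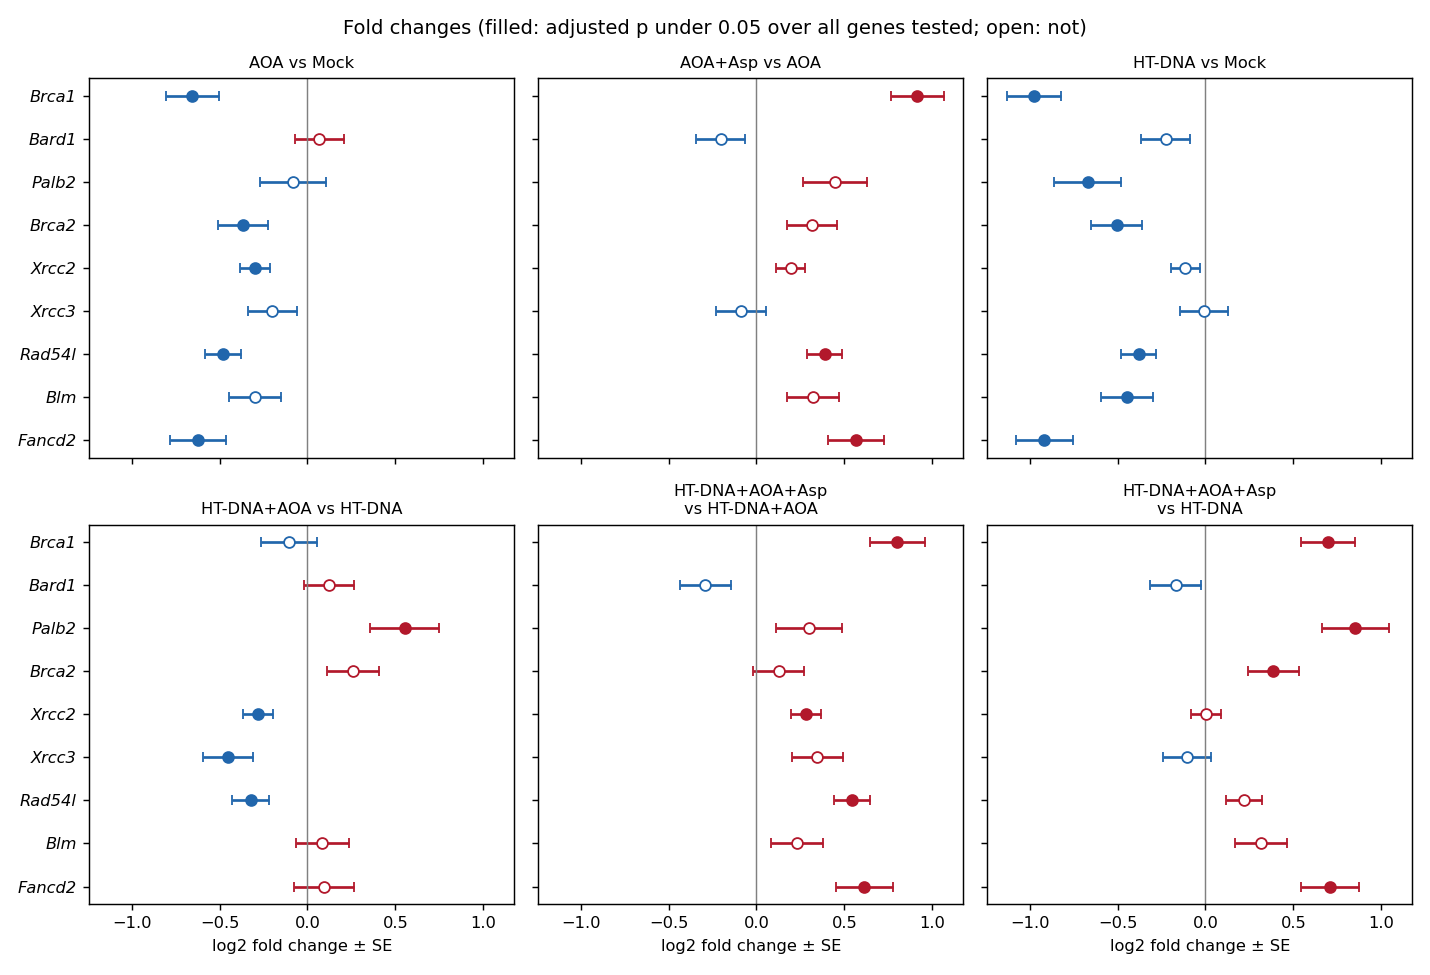
Log2 fold change (± SE from the edgeR fit, 3 libraries a group) of each of the 9 genes in 6 comparisons, on 1 shared axis. Filled points passed an adjusted p of 0.05 over all genes tested, and open points did not. Blue is below 0 and red above. With AOA and with HT-DNA the filled points lie below 0, and where aspartate was added to AOA they lie above 0.

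Brca1 encodes a ubiquitin ligase that acts early in the pathway. Its levels in Mock cells were 52.4, 50.5 and 45.8 CPM (49.6 ± 3.38, SD, n = 3), in AOA cells 34.0, 29.0 and 31.6 (31.5 ± 2.53) and in AOA+Asp cells 65.7, 54.8 and 57.9 (59.4 ± 5.63). Every AOA library lay below every Mock and AOA+Asp library. Brca1 fell with AOA (log2 fold change -0.65, SE 0.15, edgeR adjusted p = 0.00179) and rose with aspartate against AOA (0.92, SE 0.15, edgeR adjusted p = 8.96e-05). The AOA+Asp libraries all lay above the Mock libraries, but this difference did not pass the test (0.26, SE 0.15, edgeR adjusted p = 0.327). With HT-DNA the levels were 22.8, 29.1 and 23.7 CPM (25.2 ± 3.41), again below every Mock library, and the fall was -0.98 (SE 0.15, edgeR adjusted p = 8.32e-05). Brca1 had the widest range of the 9 genes, 2.54-fold between the lowest and the highest group mean.

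In HT-DNA+AOA cells Brca1 was at 32.0, 21.2 and 17.1 CPM (23.4 ± 7.71), which overlapped the HT-DNA libraries. In HT-DNA+AOA+Asp cells it was at 38.5, 43.9 and 40.3 CPM (40.9 ± 2.74), above every library of HT-DNA and HT-DNA+AOA cells. It rose by 0.80 (SE 0.16, edgeR adjusted p = 0.000399) against HT-DNA+AOA and by 0.70 (SE 0.16, edgeR adjusted p = 0.00161) against HT-DNA. These 3 libraries still lay below all AOA+Asp libraries, a difference of -0.54 (SE 0.15) that missed the threshold in edgeR (adjusted p = 0.0541) and passed it in DESeq2 (adjusted p = 0.0183).

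Bard1 encodes the partner that keeps BRCA1 stable. It stood at 16.2, 13.5 and 13.2 CPM in Mock cells (14.3 ± 1.64) and at 16.2, 14.0 and 14.8 in AOA cells (15.02 ± 1.14), and the 2 groups overlapped. Its log2 fold change with AOA was 0.07 (SE 0.14, edgeR adjusted p = 0.728), next to the fall of Brca1. With HT-DNA it was at 12.6, 12.3 and 11.9 CPM (12.3 ± 0.355), just below the Mock libraries, with a log2 fold change of -0.23 (SE 0.14, edgeR adjusted p = 0.194). Adding aspartate gave values of -0.20 (edgeR adjusted p = 0.248) without HT-DNA and -0.29 (edgeR adjusted p = 0.105) with it, where Brca1 rose. The latter value was -0.04 (edgeR adjusted p = 0.802) without HT-DNA+AOA library 1 and was called lower without its library 3 (-0.44, edgeR adjusted p = 0.0112). With all libraries and no correction, Bard1 passed the test in none of the 9 comparisons, and Brca1 in 5.

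Palb2 and Brca2 encode proteins that act after BRCA1 in the pathway. Palb2 was at 8.72, 7.98 and 8.50 CPM in Mock cells (8.40 ± 0.381), at 9.37, 7.56 and 6.86 in AOA cells (7.93 ± 1.29) and at 5.81, 5.73 and 4.32 in HT-DNA cells (5.29 ± 0.837). AOA and Mock overlapped, and the HT-DNA libraries lay below both. Palb2 did not pass the test with AOA (-0.08, SE 0.19, edgeR adjusted p = 0.748) and fell with HT-DNA (-0.67, SE 0.19, edgeR adjusted p = 0.00797), a call that was lost without HT-DNA library 3 (-0.54, edgeR adjusted p = 0.0514). In AOA+Asp cells it was at 12.5, 8.22 and 11.7 CPM (10.8 ± 2.28), which overlapped Mock and AOA, and in HT-DNA+AOA+Asp cells at 8.90, 10.5 and 9.18 (9.52 ± 0.847). The latter lay above every HT-DNA library, a rise of 0.85 (SE 0.19, edgeR adjusted p = 0.00175).

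Brca2 was at 17.4, 16.6 and 17.7 CPM in Mock cells (17.2 ± 0.585), at 11.95, 14.1 and 14.0 in AOA cells (13.3 ± 1.21) and at 11.6, 13.5 and 11.3 in HT-DNA cells (12.1 ± 1.18). Both treated groups lay below every Mock library. The fall with AOA was -0.37 (SE 0.14, edgeR adjusted p = 0.0432), and this call was lost in each of the 6 fits that left out 1 library of the 2 groups, with values of -0.41 to -0.30 and edgeR adjusted p-values of 0.0623 to 0.152. The fall with HT-DNA was -0.51 (SE 0.14, edgeR adjusted p = 0.00775) and held in all 6. In AOA+Asp cells Brca2 was at 16.5, 15.6 and 17.8 CPM (16.6 ± 1.11), above the AOA libraries, with a log2 fold change of 0.32 (SE 0.14, edgeR adjusted p = 0.0812) that did not pass. In HT-DNA+AOA+Asp cells it was at 14.8, 15.4 and 17.3 CPM (15.9 ± 1.31) and rose against HT-DNA by 0.39 (edgeR adjusted p = 0.0366), a call that was lost without HT-DNA library 1 (0.36) or 3 (0.33) or without HT-DNA+AOA+Asp library 2 (0.40) or 3 (0.32).

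With AOA and with HT-DNA the log2 fold changes of Xrcc2 and Xrcc3 were nearer to 0 than that of Brca1. Xrcc2 was at 37.5, 35.6 and 35.0 CPM in Mock cells (36.0 ± 1.31), at 32.7, 29.1 and 25.99 in AOA cells (29.3 ± 3.36) and at 34.8, 32.0 and 33.7 in AOA+Asp cells (33.5 ± 1.42). The AOA libraries lay below Mock, and 1 of them overlapped AOA+Asp. Xrcc2 fell with AOA (-0.30, SE 0.08, edgeR adjusted p = 0.00700), while its value of 0.19 with aspartate did not pass in edgeR (adjusted p = 0.0677) and passed in DESeq2 (adjusted p = 0.0479). With HT-DNA it was at 33.1, 33.8 and 32.9 CPM (33.3 ± 0.473), with a log2 fold change of -0.11 (SE 0.08, edgeR adjusted p = 0.270). In HT-DNA+AOA cells it was at 30.4, 26.8 and 25.0 CPM (27.4 ± 2.70), below every HT-DNA library.

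Xrcc3 held the lowest count of the 9 genes in any library. It stood at 7.74, 8.02 and 7.64 CPM in Mock cells (7.80 ± 0.196), at 7.14, 7.04 and 6.16 in AOA cells (6.78 ± 0.538) and at 5.92, 6.70 and 6.53 in AOA+Asp cells (6.39 ± 0.409). Both groups lay below Mock, with log2 fold changes of -0.20 (edgeR adjusted p = 0.256) and -0.29 (edgeR adjusted p = 0.238) that did not pass. Adding aspartate to AOA gave -0.09 (edgeR adjusted p = 0.630). With HT-DNA it was at 9.30, 6.49 and 7.56 CPM (7.78 ± 1.42), spread on both sides of the Mock libraries, with a log2 fold change of -0.01 (edgeR adjusted p = 0.975).

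Rad54l, the motor protein gene, was at 25.6, 25.1 and 22.0 CPM in Mock cells (24.3 ± 1.99), at 19.2, 16.6 and 16.5 in AOA cells (17.4 ± 1.55) and at 22.0, 20.2 and 26.04 in AOA+Asp cells (22.7 ± 2.99). The AOA libraries lay below both other groups. Rad54l fell with AOA (-0.48, SE 0.10, edgeR adjusted p = 0.000819) and rose with aspartate against AOA (0.39, SE 0.10, edgeR adjusted p = 0.00458). With HT-DNA it was at 19.0, 17.1 and 19.9 CPM (18.6 ± 1.46), below every Mock library, and fell by 0.38 (SE 0.10, edgeR adjusted p = 0.00487). In the GENCODE vM21 annotation 15.4% of its exon bases overlap Lrrc41 on the other strand, and whether reads were counted by strand is not stated, so reads of the 2 genes cannot be told apart there. For Palb2 such an overlap covered 5.64% of exon bases and for Fancd2 3.24%.

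Fancd2 passed the test in the same 5 comparisons as Brca1. It was at 17.2, 19.2 and 14.7 CPM in Mock cells (17.04 ± 2.25), at 11.8, 12.2 and 9.07 in AOA cells (11.04 ± 1.71) and at 17.4, 14.5 and 17.3 in AOA+Asp cells (16.4 ± 1.66). The AOA libraries lay below both other groups, and AOA+Asp overlapped Mock. Fancd2 fell with AOA (-0.62, SE 0.16, edgeR adjusted p = 0.00362) and rose with aspartate by 0.57 (SE 0.16, edgeR adjusted p = 0.00710). With HT-DNA it was at 8.64, 9.57 and 8.87 CPM (9.03 ± 0.484), a fall of -0.92 (SE 0.16, edgeR adjusted p = 0.000212). In HT-DNA+AOA+Asp cells it was at 13.8, 14.3 and 16.1 CPM (14.8 ± 1.24), above every HT-DNA library, a rise of 0.71 (SE 0.16, edgeR adjusted p = 0.00204).

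Blm passed the test in 1 of the 9 comparisons. It was at 25.9, 25.96 and 25.1 CPM in Mock cells (25.7 ± 0.486), at 21.9, 21.4 and 19.1 in AOA cells (20.8 ± 1.48) and at 28.3, 23.3 and 26.5 in AOA+Asp cells (26.04 ± 2.52). The AOA libraries lay below both other groups, but neither the log2 fold change of -0.30 with AOA (SE 0.15, edgeR adjusted p = 0.105) nor that of 0.32 with aspartate (SE 0.15, edgeR adjusted p = 0.0831) passed. With HT-DNA it was at 17.8, 21.0 and 17.6 CPM (18.8 ± 1.89), below every Mock library, a fall of -0.45 (SE 0.15, edgeR adjusted p = 0.0185) that was lost without HT-DNA library 1 (-0.41, edgeR adjusted p = 0.0641) or 3 (-0.40, edgeR adjusted p = 0.0718).

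The other genes of the pathway were taken as lists by function. With AOA, where 22.4% of all genes tested were called higher and 23.3% lower, 4 of 17 other recombination genes rose, a share near that background, and 1 fell. Rad52, whose protein anneals single strands, rose by 1.40 (SE 0.11, edgeR adjusted p = 9.32e-09) and Mcm8, a helicase of the pathway, by 0.62 (edgeR adjusted p = 0.00104), while Brip1, a helicase that binds BRCA1, fell by 0.63 (edgeR adjusted p = 0.000512). Among the 5 genes of the BRCA1-A complex, which holds BRCA1 at ubiquitin marks near breaks, 4 rose and none fell, with Abraxas1 at 0.67 and Babam2 at 0.49, while Brca1 itself fell. The list medians were 0.12 and 0.36, and with library totals the count for the other recombination genes was 3 higher and 3 lower, with a median of -0.01.

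In lists of the steps around recombination the counts with AOA, read against the same 22.4% of all genes called higher and 23.3% lower, ranged from near the background to mostly lower. Of 12 damage checkpoint genes, 7 fell and 2 rose (median -0.40), with Chek2, a kinase activated by ATM, at -1.08 and Etaa1, an activator of ATR, at -1.07. Of 9 genes of end resection and RPA, 4 fell and none rose (median -0.22), with Rpa2 at -0.48 and Exo1, a nuclease that trims broken ends, at -0.46. Of 14 Fanconi anemia genes, 6 fell and 1 rose (median -0.16), with Fancm at -0.998 and Fan1 at -0.86. Of 11 genes of RecQ helicases and junction resolution, 5 fell and 2 rose (median -0.18): the resolvase gene Gen1 fell by 1.14, while Mus81, which encodes another junction nuclease, rose by 0.90. Of 16 end joining genes, 4 fell and 2 rose (median -0.04), near the background, with Lig4, the ligase of that pathway, at -0.93.

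When aspartate was given with AOA, 23.5% of all genes were called higher and 22.8% lower. Of the BRCA1-A genes 4 fell and none rose, of the resection genes 6 rose and none fell, of the checkpoint genes 7 rose and none fell, and of the Fanconi genes 6 rose and 1 fell. Of the end joining genes 6 rose and 1 fell and of the RecQ and resolution genes 5 rose and 3 fell, while of the other recombination genes 3 rose and 2 fell, no more than the background in either direction. Rad52 fell by 0.85 and Gen1 rose by 1.12. This comparison shares its AOA libraries with that of AOA against Mock, so counts that lie the other way here are not independent of the first result. Against Mock, Rad52 stayed higher in AOA+Asp cells (0.55, SE 0.11, edgeR adjusted p = 0.00448), where none of the 9 genes was called.

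The lists of cell cycle genes are given because recombination genes are transcribed mainly in cycling cells. With AOA, where 22.4% of all genes were called higher and 23.3% lower, 17 of 30 S phase genes fell and 1 rose (median -0.25), with E2f2 at -1.50, E2f7 at -1.02 and Ccne2 at -0.999, and 11 of 20 G2/M genes fell and 1 rose (median -0.27), with Mki67 at -0.79 and Plk1 at -0.57. The summed level of the S phase genes was 3049 to 3228 CPM in Mock and 2528 to 2663 CPM in AOA libraries, and that of the G2/M genes 2996 to 3093 and 2460 to 2559 CPM. For both lists the libraries of the 2 groups did not overlap. With HT-DNA 24.2% of all genes were called higher and 24.0% lower. There 14 of 30 S phase genes rose and 4 fell (median 0.15), and the summed level was 3683 to 3709 CPM, above every Mock library, while 7 of 20 G2/M genes rose and 8 fell (median -0.01). With library totals the S phase count with HT-DNA was 12 higher and 9 lower, with a median of 0.04. In these bulk samples fewer cells in a phase and less RNA per cell cannot be told apart, and the part of the cell cycle in the levels of the 9 genes was not tested.

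With HT-DNA the repair lists were mixed, beside 24.2% of all genes called higher and 24.0% lower. Of the other recombination genes 3 rose and 4 fell, near or under that background, with Brip1 at -0.76. Of the Fanconi genes 2 rose and 6 fell, with Fan1 at -0.94 and Fancm at -0.79, and of the checkpoint genes 1 rose and 4 fell, with Chek2 at -0.68. Of the BRCA1-A genes 1 rose and 2 fell, of the resection genes 3 rose and 1 fell, and of the RecQ and resolution genes 2 rose and 4 fell, with Wrn at -0.96. Only the end joining genes among these 4 lists, of which 3 rose and 4 fell, were again near or under the background, with Prkdc at -1.02. With the correction for GC content and length described below, the checkpoint count with HT-DNA was 5 higher and 3 lower, with a median of 0.12 in place of -0.25.

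**Figure D3:**
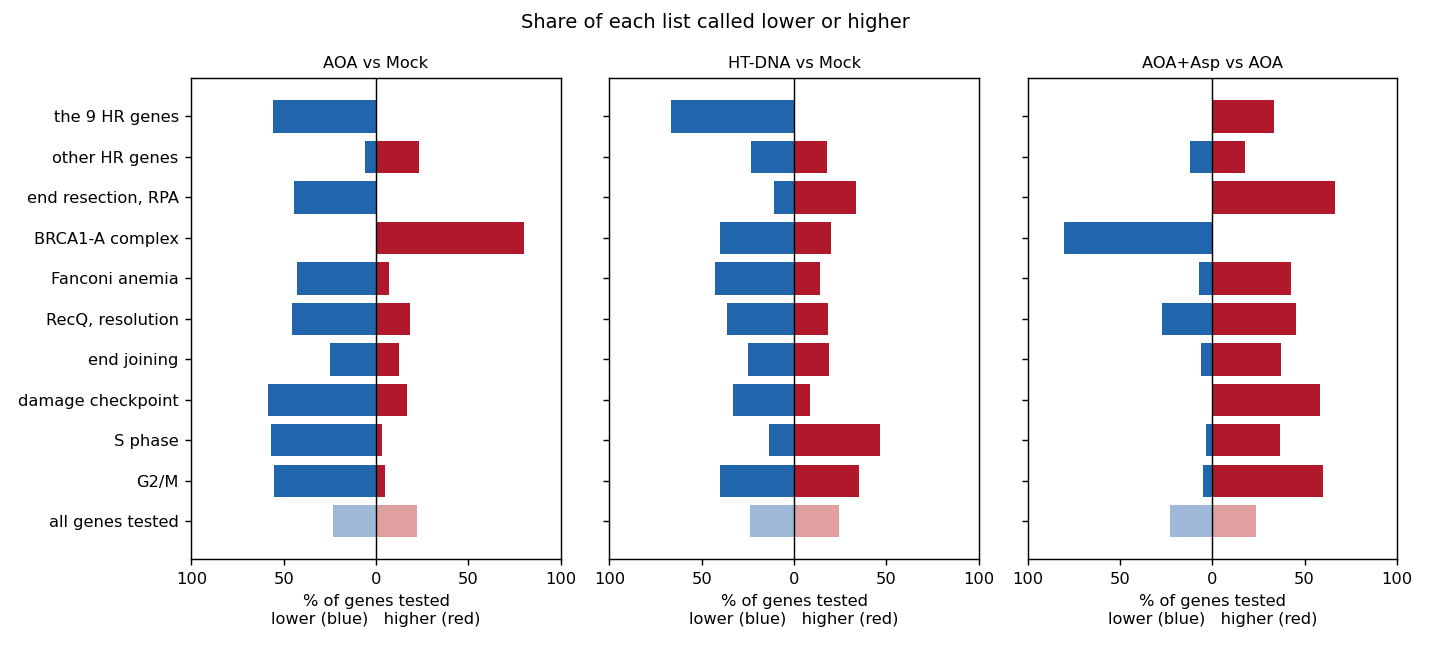
Share of the genes tested in each list that were called lower (blue, to the left) or higher (red, to the right), in percent, in 3 comparisons. The pale bars are all 14263 genes tested. For the 9 homologous recombination genes the bar is on the left with AOA and with HT-DNA and on the right where aspartate was added to AOA, and the S phase bar with HT-DNA is mostly on the right.

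AOA was also compared within cells given HT-DNA. With all libraries, Rad54l (-0.32, SE 0.11, edgeR adjusted p = 0.0170), Xrcc2 (-0.28, SE 0.09, edgeR adjusted p = 0.0115) and Xrcc3 (-0.45, SE 0.14, edgeR adjusted p = 0.0145) fell in HT-DNA+AOA against HT-DNA cells, and Palb2 rose (0.55, SE 0.20, edgeR adjusted p = 0.0274). These are 4 of the 9 genes, where 45.4% of all genes were called. Rad54l was at 16.2, 14.6 and 13.9 CPM in HT-DNA+AOA cells (14.9 ± 1.18) and Xrcc3 at 5.85, 6.31 and 4.83 (5.67 ± 0.759), all below the HT-DNA libraries. Palb2 was at 10.3, 6.88 and 5.96 CPM (7.71 ± 2.28), all above them, and library 1 was the highest. Without library 1 the value of Palb2 was 0.29 (edgeR adjusted p = 0.207), Brca1 was called lower (-0.39, edgeR adjusted p = 0.00979), the falls of Rad54l, Xrcc2 and Xrcc3 were -0.39, -0.36 and -0.47, and 45.1% of all genes were called. The call of Palb2 was also lost without HT-DNA library 3 (0.42), that of Rad54l without HT-DNA library 3 (-0.27) or HT-DNA+AOA library 2 (-0.31), and that of Xrcc3 without HT-DNA library 1 (-0.31) or HT-DNA+AOA library 3 (-0.35), whereas that of Xrcc2 held in all 6 fits. Brca2 was called higher without HT-DNA+AOA library 3 (0.44, edgeR adjusted p = 0.00411), in 1 of its 6 fits. The calls of Xrcc3 and Palb2 were also lost with the correction for GC content and length described below. All 4 calls, that of Xrcc2 among them, were lost when only the libraries of these 2 groups were fitted. Of all genes, 29.5% were called in that fit.

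When aspartate was given with HT-DNA and AOA, 4 of the 9 genes rose against HT-DNA+AOA and none fell without a correction for GC content and length, where 47.7% of all genes were called (23.7% higher and 23.9% lower, or 29.4% and 17.9% with library totals). Besides Brca1 these were Rad54l, at 21.2, 22.0 and 22.0 CPM (0.54, SE 0.10, edgeR adjusted p = 0.000331), Xrcc2, at 34.3, 33.4 and 32.4 CPM (0.28, SE 0.09, edgeR adjusted p = 0.0107), and Fancd2 (0.61, SE 0.16, edgeR adjusted p = 0.00480). Without HT-DNA+AOA library 1, 7 of the 9 rose, by 0.36 for Brca2 and Xrcc2 up to 1.09 for Brca1, all but Bard1 and Xrcc3, where 56.0% of all genes were called. Against HT-DNA alone 4 of the 9 rose, namely Brca1, Palb2, Brca2 and Fancd2, and none fell, where 46.6% of all genes were called and 23.2% were called higher. Xrcc2 stood at 0.00 in that comparison (edgeR adjusted p = 0.977), with libraries on both sides of those of HT-DNA.

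HT-DNA was also compared within AOA-treated cells. Between HT-DNA+AOA and AOA cells edgeR called 0 of the 9 genes, with 2 at an unadjusted p under 0.05 and 0 called by DESeq2, where edgeR called 13.4% of all genes and DESeq2 15.3%. Brca1 had the log2 fold change farthest from 0, -0.43 (SE 0.16, edgeR adjusted p = 0.0852). Without HT-DNA+AOA library 1, 4 of the 9 fell, with Brca1 at -0.72, Fancd2 at -0.47, Bard1 at -0.42 and Blm at -0.36, where 29.3% of all genes were called. Between HT-DNA+AOA+Asp and AOA+Asp cells edgeR called 0 of the 9, with 1 at an unadjusted p under 0.05 and 1, Brca1, called by DESeq2, where edgeR called 3.45% of all genes and DESeq2 5.13%.

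The difference between the AOA effect with HT-DNA and that without it was tested as an interaction. It passed for 2 of the 9 genes, Fancd2 (0.72, SE 0.23, edgeR adjusted p = 0.0442) and Brca2 (0.63, SE 0.21, edgeR adjusted p = 0.0464), where 15.5% of all genes passed (7.23% higher and 8.26% lower, or 9.73% and 5.35% with library totals). For Fancd2 the AOA effect was -0.62 without HT-DNA and 0.09 with it, and for Brca2 -0.37 and 0.26. In HT-DNA+AOA cells Fancd2 was at 12.9, 8.68 and 7.28 CPM (9.60 ± 2.90) and Brca2 at 18.8, 14.2 and 10.4 (14.5 ± 4.17), so that library 1 was the highest for both. Without that library 0 of the 9 passed in edgeR, with values of 0.45 (adjusted p = 0.138) and 0.40 (adjusted p = 0.127), where 11.4% of all genes passed. Fancd2 passed in 3 of the 12 fits with 1 library left out, with values of 0.45 to 0.87, and Brca2 in 2 of 12, with values of 0.40 to 0.81. The fit without HT-DNA+AOA library 3 went the other way from that without library 1. In it 5 of the 9 passed, namely Brca1, Palb2, Brca2, Blm and Fancd2, and the share of all genes in that fit is not given here. The difference between the aspartate effect with HT-DNA and that without it passed for 0 of the 9 in edgeR, with 1 at an unadjusted p under 0.05 and 0 in DESeq2, where 1.05% of all genes passed in edgeR and 2.19% in DESeq2.

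**Figure D4:**
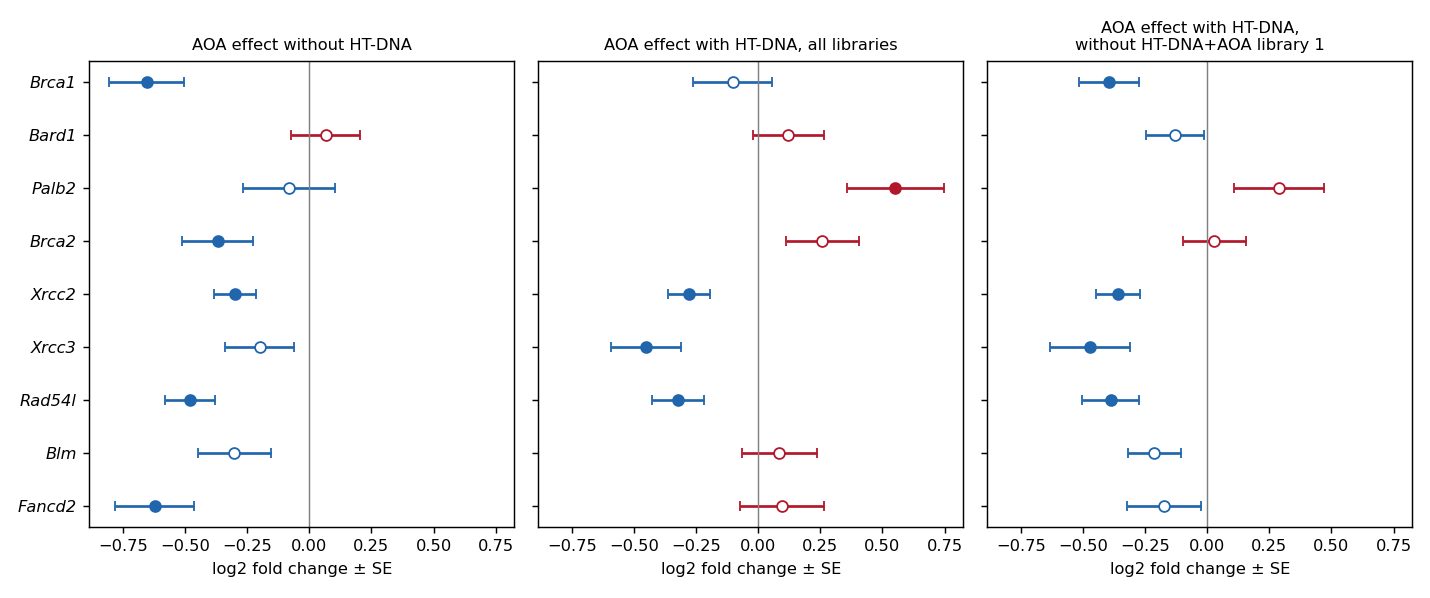
Log2 fold change (± SE) with AOA of each of the 9 genes in cells without HT-DNA (left), with HT-DNA and all libraries (middle), and with HT-DNA but without HT-DNA+AOA library 1 (right). Filled points passed an adjusted p of 0.05. Blue is below 0 and red above. All 9 genes lie further to the left in the right panel than in the middle one, with Rad54l, Xrcc2 and Xrcc3 moving least.

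The 9 genes are mostly long. The longest transcript of Brca2 has 10724 bases, more than 98.3% of the genes tested, and that of Brca1 6572 bases, more than 90.3%. The median over the 9 was 4770 bases with a GC content of 46.2%, beside 3120 bases and 49.3% over the 13909 tested genes with an annotation. Xrcc3, with 2422 bases and 56.9% GC, is the exception. The fits were therefore repeated after each library's trend with GC content and length was removed.

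With this correction 3 of the 6 falls with HT-DNA remained, Brca1 (-0.56), Fancd2 (-0.55) and Palb2 (-0.47), where 43.4% of all genes were called. Rad54l (-0.10, edgeR adjusted p = 0.359) and Blm (-0.12, edgeR adjusted p = 0.297) lost theirs, and Brca2 turned from -0.51 to 0.11 (edgeR adjusted p = 0.357). The shift was largest for Brca2, the longest of the 9, and Xrcc3, the shortest, shifted the other way, from -0.01 to -0.33 (edgeR adjusted p = 0.0766). With AOA the falls of Brca1 (-0.50), Fancd2 (-0.48), Rad54l (-0.37) and Xrcc2 (-0.31) remained and that of Brca2 did not (-0.12, edgeR adjusted p = 0.310), where 51.7% of all genes were called. When aspartate was added to AOA, Brca1 (0.71), Fancd2 (0.39) and Rad54l (0.27) remained higher, Palb2 (0.44) and Xrcc2 (0.18) were added, and Bard1 was called lower (-0.39, edgeR adjusted p = 0.00142), where 50.2% of all genes were called. In HT-DNA+AOA against HT-DNA cells the falls of Rad54l (-0.40) and Xrcc2 (-0.40) remained, the calls of Xrcc3 (-0.20, edgeR adjusted p = 0.303) and Palb2 (0.36, edgeR adjusted p = 0.0604) were lost, and Brca1 was called lower (-0.25, edgeR adjusted p = 0.0186), where 51.4% of all genes were called. In HT-DNA+AOA+Asp against HT-DNA+AOA cells Brca1 (0.56), Rad54l (0.37), Xrcc2 (0.23) and Fancd2 (0.41) remained higher, Xrcc3 was added (0.46, edgeR adjusted p = 0.0176), and Bard1 was called lower (-0.51, edgeR adjusted p = 0.00017), where 50.6% of all genes were called. In HT-DNA+AOA+Asp against HT-DNA cells Brca1 (0.31), Palb2 (0.64) and Fancd2 (0.38) remained higher, Brca2 turned to -0.21 (edgeR adjusted p = 0.0858), and Bard1 (-0.52) and Xrcc2 (-0.16) were called lower, where 37.2% of all genes were called. The interactions of Fancd2 (0.45, edgeR adjusted p = 0.0557) and Brca2 (0.13, edgeR adjusted p = 0.533) did not pass with the correction, where 18.5% of all genes did. What the trends with GC content and length come from was not tested.

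**Figure D5:**
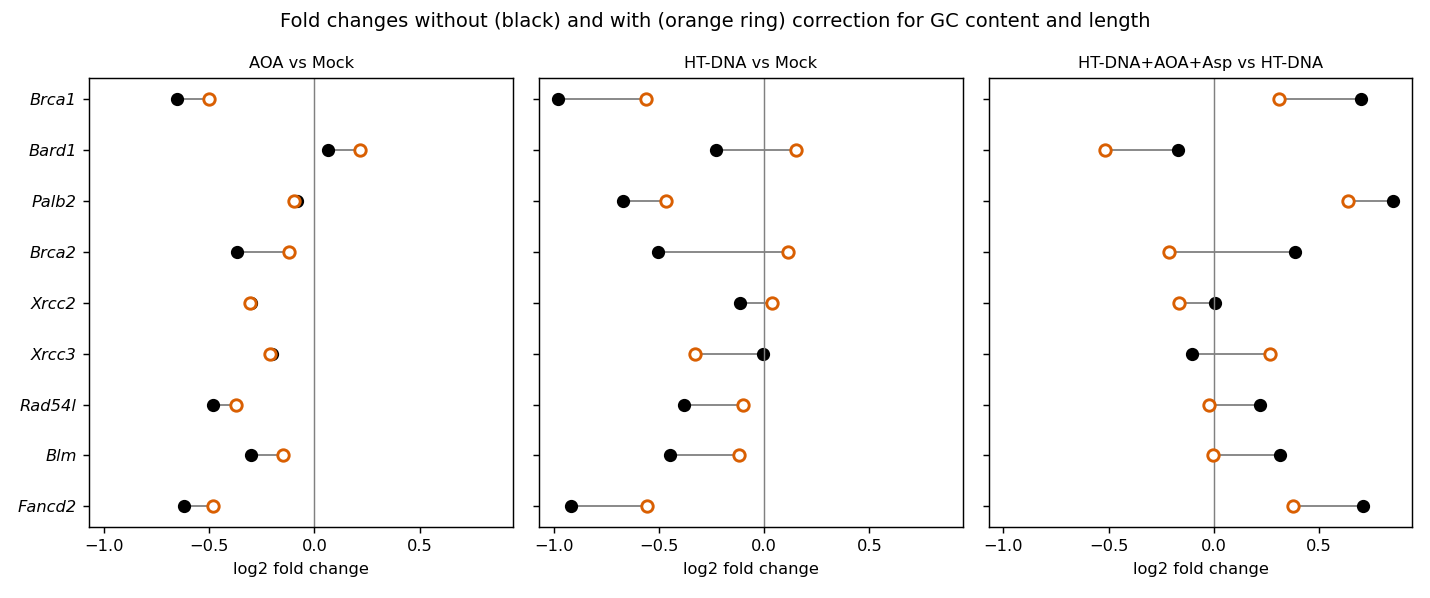
Log2 fold change of each of the 9 genes without (black) and with (orange ring) the correction for GC content and length, in 3 comparisons. Brca1, Palb2 and Fancd2 keep their side of 0 in all 3 panels. Brca2 and Xrcc2 cross 0 with HT-DNA and in HT-DNA+AOA+Asp against HT-DNA. Bard1 crosses 0 with HT-DNA alone, and Rad54l, Blm and Xrcc3 in HT-DNA+AOA+Asp against HT-DNA alone.

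Across the 18 libraries the genes varied together to unlike degrees. The Pearson correlation of a gene's log2 CPM with the mean of the other 8 was 0.932 for Blm, 0.931 for Fancd2, 0.891 for Brca1 and 0.805 for Rad54l. It was 0.759 for Brca2, 0.737 for Xrcc2 and 0.657 for Palb2, and 0.269 for Bard1 and 0.256 for Xrcc3. Xrcc3 alone with Xrcc2 gave 0.619. Of the 36 pairs, 1 was below 0, Palb2 with Xrcc3 at -0.156, and the highest was Brca1 with Fancd2 at 0.930. The libraries share their groups, so these values describe the pattern over treatments and are not tests. Among the 12123 other genes that averaged 1 CPM or more, those most like the mean profile of the 9 included Ncapd3 (r = 0.970), Golga3 (0.968), Gxylt1 (0.967) and Arid2 (0.964). Their longest transcripts had 5499, 8132, 6611 and 8507 bases, in the same order.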

How the data were processed

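RNA of 18 L929 libraries in 6 groups of 3 was sequenced, and groups were taken from the sample labels. The values the authors deposited are expected counts, that is estimated read numbers for each gene, not normalized. As 11.6% of them were fractional, they were rounded before use. The aligner, counting program and genome build are not given in the sources used here. The table also holds group means, which were not used.

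The rounded counts went into edgeR 4.0.16 under R 4.3.3. Its filterByExpr function (at least 10 counts in enough libraries and 15 in total) set which genes were tested, libraries were scaled with TMM, and all 18 were fitted in 1 robust quasi-likelihood model, with p-values adjusted by Benjamini and Hochberg's method. The 9 comparisons of groups and 2 interactions were each 1 contrast of this model. Standard errors are the log2 fold change divided by the square root of the F statistic. The steps were tested on simulated data. In those data few genes changed and each gene had the same spread in all groups. That test therefore does not cover the wide changes or the uneven HT-DNA+AOA group seen here. The replicates were stated to be independent cultures.

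The 9 genes and the lists were chosen with earlier results of these data known. All 9 genes were named, with up to 3 called genes of each list in a comparison that had the largest log2 fold change, and the 5 genes most like the mean profile of the 9. Some genes that this rule took are not reported here. Lists are given by counts and medians, without a test. Transcript length, GC content, overlaps and shared sequences of 31 bases (at most 3.12% of a gene among the 9) came from GENCODE vM21, which may not be the release the authors used. Promoters came from RefSeq and were used for letters alone.

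The alternatives were DESeq2 1.42.0, RLE normalization, library totals, no filter or a stricter filter on low counts, a log2 fold change of 1 or more, the replicate number as a block, only the libraries compared, each library left out in turn, and removal of each library's loess trend with GC content and length (span 0.3, 97.5% of tested genes annotated). Replicates varied beyond counting error. Chi-square values per degree of freedom between replicates were 2.69 to 60.8, the highest between HT-DNA+AOA libraries 1 and 3. Same-numbered libraries were not paired by the labels.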

Additional observations from a re-analysis of the deposited data

Results flagged for a closer look

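The AOA effect with HT-DNA was higher than that without it for Brca2, by 0.63 on the log2 scale (edgeR adjusted p = 0.0464), and for Fancd2, by 0.72 (edgeR adjusted p = 0.0442), each by a test of the difference itself. Without HT-DNA+AOA library 1 the values were 0.40 and 0.45 and neither passed. Of the 12 fits that left out 1 library, Brca2 passed in 2 and Fancd2 in 3, and both passed without HT-DNA+AOA library 3. Corrected for GC content and length, the values were 0.13 (edgeR adjusted p = 0.533) and 0.45 (edgeR adjusted p = 0.0557).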

How the results depend on the processing

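Counts of the 9 genes called moved with several choices. With a log2 fold change of 1 or more in size, 0 of the 9 were called in each of the comparisons with calls. The share of all genes at that size is not given here. For aspartate added to AOA the count was 7 with library totals, 6 without a filter on low counts, with only the libraries compared and corrected for GC and length, and 5 with the replicate block and with DESeq2. Of all genes these fits called 46.1%, 21.6%, 50.8%, 50.2% and 46.9% in that order, and 6636 of 14263 with DESeq2. Shares without a filter are of 29986 genes. The count was 1 (Brca1) for AOA+Asp against Mock with only the libraries compared, 3 for HT-DNA corrected for GC and length, and 0 for HT-DNA+AOA against HT-DNA with only the libraries compared. Of all genes these fits called 17.2%, 43.4% and 29.5%, in that order. For HT-DNA+AOA against AOA the count was 1 without a filter, where 6.85% of all genes were called. It was also 1 corrected for GC and length, where 2878 of 14263 were. For HT-DNA+AOA+Asp against AOA+Asp the count was 1 without a filter, with the replicate block, with only the libraries compared, corrected for GC and length and with DESeq2. Of all genes these fits called 2.22%, 3.44%, 12.9%, 1230 of 14263 and 5.13%, in that order. For the AOA interaction the count was 4 without a filter, 1 (Fancd2) with the replicate block, and 0 with only the libraries compared and corrected for GC and length. Of all genes 9.22%, 15.9%, 6.20% and 18.5% passed in these fits, in that order. The called values that reversed were those of Brca2 with that correction, 0.11 with HT-DNA and -0.21 for HT-DNA+AOA+Asp against HT-DNA. The cause was not tested.

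With each library left out in turn, the counts were 4 in every fit for AOA, 3 to 5 for aspartate added to AOA, 0 for AOA+Asp against Mock, 4 to 6 for HT-DNA, 2 to 4 for HT-DNA+AOA against HT-DNA, 4 to 7 for HT-DNA+AOA+Asp against HT-DNA+AOA, 3 to 4 against HT-DNA, 0 to 4 for HT-DNA+AOA against AOA, 0 for HT-DNA+AOA+Asp against AOA+Asp, 0 to 5 for the AOA interaction and 0 for the aspartate interaction. The highest interaction count came without HT-DNA+AOA library 3 and the count of 4 against AOA without library 1. Of the values for single genes, 732 kept their side of the threshold, 42 were newly called, 16 lost their call and 2 called ones were reversed. In the fits with 1 library left out these were 645, 19, 38 and 0. Direction was compared only for values called in the fit of all 18 libraries with TMM. Other values could change sign and still count as kept, such as Bard1 with HT-DNA (-0.23, and 0.15 corrected for GC content and length).

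Same-numbered libraries deviated together little or not at all (correlation -0.101 to 0.246, median 0.011, 6 of 45 pairs over 0.1, 9 of 18 libraries best with their own number). This does not exclude a weak pairing. The labels give numbers alone, so the number was not taken as a pairing, and counts that moved with it as a block are given above. Depth limits Xrcc3 and Palb2 most, at 81 and 99 counts in their lowest library.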
